A study of Homo sapiens with 9 samples.

Results

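The protein folding and stress response genes described here are 39 of the 36753 Ensembl gene identifiers with values, and they were chosen by name from their known function. They comprise 15 chaperones and folding enzymes of the endoplasmic reticulum (ER), 7 genes of the unfolded protein response and of ER-associated degradation, 14 cytosolic genes (chaperones, co-chaperones and the transcription factor HSF1), and 3 mitochondrial chaperones. All 39 had a value in each of 9 RNA sequencing libraries. The cells were PANC-1, a widely used line derived from a carcinoma of the human pancreas. The libraries fall into 3 groups of 3 replicates, named control, siSIRT6 and siKDM5C in the labels, and all were taken 48 hours after transfection. In the siSIRT6 group a short interfering RNA (siRNA) was directed at SIRT6, a nuclear NAD-dependent deacetylase, and in the siKDM5C group at KDM5C, a demethylase of histone H3 lysine 4. Every control library also went through transfection, and its column header reads siNC. The sources used here do not give the siRNA sequences or how many were used, a knockdown leaves part of the transcript, and all results come from 1 cell line at 1 time. The labels do not say whether each replicate was its own culture, and p-values therefore measure only the spread between these samples, which may be technical.

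Proteins that enter the secretory pathway fold in the ER with the help of chaperones, lectins and disulfide isomerases, and misfolded proteins are returned to the cytosol for degradation. When misfolded proteins accumulate, the sensors IRE1 (gene ERN1), ATF6 and PERK (EIF2AK3) start the unfolded protein response, in which spliced XBP1 and cleaved ATF6 raise the transcription of ER chaperones and degradation factors. In the cytosol and nucleus the trimeric factor HSF1 drives heat shock genes, while mitochondria rely on their own HSP70 and on a folding chamber built from HSPD1 and HSPE1. The exocrine pancreas, the organ of origin of this line, is known for its heavy secretory load and its dependence on these pathways.

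Each member is given in FPKM, which corrects the fragment count of a gene for a gene length and for the depth of the library. The length implied by the values was 13092 bases for HSP90B1, whose longest coding transcript has 2858. For HSPA5 it was 3659 bases, beside a longest coding transcript of 3908. FPKM levels of different genes, and sums over genes, therefore compare only roughly, while comparisons of 1 gene between groups use the same length. The reads in genes implied by the values ran from 18201420 to 26910478 per library, and 3 reads in a gene of 1 kilobase correspond to between 0.112 FPKM (deepest library) and 0.165 FPKM (shallowest library). Both targets fell in their own group. SIRT6 stood at 6.20, 5.17 and 7.17 FPKM in the control libraries, in the order of replicates 1, 2 and 3 that is kept throughout. After siSIRT6 it stood at 0.795, 0.509 and 0.487 FPKM, and after siKDM5C at 5.05, 4.60 and 5.39 FPKM. KDM5C was at 18.4 ± 0.389 FPKM in control (SD, n = 3), 17.8 ± 0.139 FPKM after siSIRT6 and 3.61 ± 0.290 FPKM after siKDM5C. Epithelial keratins and adhesion genes marked the cells, with 5 of 6 markers at a median of at least 1 FPKM. Their summed level lay between 1091 and 1143 FPKM in control, between 1398 and 1513 FPKM after siSIRT6 and between 696 and 856 FPKM after siKDM5C. None of the acinar, endocrine and endothelial markers with values reached a median of 1 FPKM. Among leukocyte markers CD68 alone did so, with a list sum of 40.6 to 54.7 FPKM in control, 34.0 to 37.1 FPKM after siSIRT6 and 70.2 to 91.2 FPKM after siKDM5C, while PTPRC was near 0. Among fibroblast markers COL1A1 alone did so, with a list sum of 15.6 to 16.6, 40.9 to 42.8 and 14.9 to 17.0 FPKM in the same order, while DCN and PDGFRA were near 0. The part of these marker shifts in the results below was not tested.

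Promoter windows from RefSeq (GRCh38.p14, from 250 bases before to 50 bases after each start site) were available for 36 of the 39 members, all except FKBP4, HSF1 and PDIA3. They were searched on both strands for the ER stress response element (ERSE, which is CCAAT and CCACG with 9 free bases between them), for its second form (ERSE-II, ATTGG and CCACG with 1 free base between them) and for a heat shock element of 3 units (HSE, GAA, TTC and GAA in that order or TTC, GAA and TTC, with 2 free bases between units). An ERSE and an ERSE-II share the letters CCACG but differ in spacing and in the orientation of the CCAAT box, and both HSE forms can overlap at 1 site. Counted per gene symbol, since a gene can have several windows, an ERSE was present for 25 of 27305 symbols (0.092%) and an ERSE-II for 19 (0.07%). Of the 36 members with a window, 7 held an ERSE and 3 held an ERSE-II. An HSE was present for 166 symbols (0.608%) and for 5 members. The members were chosen by known function, and enrichment was not tested. Every ERSE or ERSE-II match lay in an ER or unfolded protein response member and every HSE match in a cytosolic or mitochondrial one, and 21 of the 36 members matched to a window held none of the motifs. The matches are shown because they are the known elements of both stress responses, with the fixed letters of each motif in capitals, 5 flanking bases in lower case, and the strand on which the motif reads as written. Positions count from the start site, whose own base is 1, and 1 of 2 sites is shown for HYOU1, HSPA8, HSP90AB1 and HSPD1.
HSPA5 ERSE, chr9:125241386-125241414, minus strand, motif from -66 to -48: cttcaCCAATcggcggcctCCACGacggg
HSP90B1 ERSE, chr12:103930211-103930239, plus strand, motif from -194 to -176: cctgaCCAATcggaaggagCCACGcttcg
HSP90B1 second ERSE, chr12:103930316-103930344, minus strand, motif from -89 to -71: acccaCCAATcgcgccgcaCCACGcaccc
CALR ERSE, chr19:12938379-12938407, minus strand, motif from -225 to -207: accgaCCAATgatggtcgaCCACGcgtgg
CANX ERSE, chr5:179698773-179698801, plus strand, motif from -151 to -133: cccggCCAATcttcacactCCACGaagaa
PDIA6 ERSE, chr2:10812848-10812876, minus strand, motif from -86 to -68: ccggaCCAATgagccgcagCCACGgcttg
CRELD2 ERSE, chr22:49918549-49918577, minus strand, motif from -80 to -62: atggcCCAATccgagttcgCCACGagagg
XBP1 ERSE, chr22:28800598-28800626, minus strand, motif from -52 to -34: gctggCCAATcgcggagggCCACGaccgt
HERPUD1 ERSE-II, chr16:56932020-56932040, plus strand, motif from -117 to -107: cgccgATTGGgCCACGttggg
SDF2L1 ERSE-II, chr22:21642109-21642129, minus strand, motif from -188 to -178: ttttgATTGGtCCACGcttcc
HYOU1 ERSE-II, chr11:119057269-119057289, plus strand, motif from -79 to -69: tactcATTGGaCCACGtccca
HSPA8 HSE, chr11:123062174-123062196, minus strand, motif from -55 to -43: gccccTTCtgGAAggTTCtaaga
HSP90AA1 HSE, chr14:102087115-102087137, minus strand, motif from -88 to -76: ggttcTTCcgGAAggTTCgggag
HSP90AB1 HSE, chr6:44247826-44247848, plus strand, motif from -112 to -100: gattgTTCtgGAAgcTTCtggat
DNAJA1 HSE, chr9:33025271-33025293, plus strand, motif from 4 to 16: gggcgGAActTTCcaGAAcgctc
HSPD1 HSE, chr2:197500063-197500085, minus strand, motif from -240 to -228: ttctgGAAagTTCtgGAAccgag

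In control cells the members spanned a wide range of levels. The highest in FPKM was HSP90AB1, the constitutive cytosolic HSP90, at 590.5 ± 20.5 FPKM (SD, n = 3). It was followed by HSPA8, the constitutive HSP70, at 205.8 ± 5.33 FPKM, and by CALR, an ER lectin chaperone, at 195.8 ± 16.4 FPKM, and the libraries of HSPA8 and CALR overlapped. HSPA5, the ER HSP70 also called BiP, stood at 167.2 ± 6.22 FPKM, below every CALR library of the control group. The 15 ER chaperones together held 0.171% to 0.177% of all FPKM in the control libraries, 0.204% to 0.211% after siSIRT6 and 0.227% to 0.237% after siKDM5C. The 14 cytosolic genes held 0.292% to 0.303%, 0.330% to 0.341% and 0.375% to 0.380% in the same order, with no overlap between groups. The 7 unfolded protein response genes held 0.0257% to 0.0280% in control, 0.0245% to 0.0251% after siSIRT6 and 0.0279% to 0.0301% after siKDM5C. The 3 mitochondrial genes held 0.0400% to 0.0412% in control, and between 0.0452% and 0.0532% in the 6 knockdown libraries. The FPKM of all genes summed to less in every knockdown library (415892 to 423521) than in the control libraries (448575 to 473190), and a share and a summed FPKM can therefore differ in how they move. The 7 unfolded protein response genes summed to 121.7 to 125.7 FPKM in control, 102.1 to 104.8 FPKM after siSIRT6 and 116 to 125.3 FPKM after siKDM5C. In FPKM the siKDM5C libraries thus lay within or below the control range, and in shares within or above it. The 3 mitochondrial genes summed to 180.4 to 195 FPKM in control, 188.5 to 195.9 FPKM after siSIRT6 and 194.9 to 224.2 FPKM after siKDM5C. For them each knockdown group overlapped control in FPKM but not in shares. The 15 ER chaperones summed to 771.4 to 822.7 FPKM in control, 863.7 to 878.4 FPKM after siSIRT6 and 942 to 996.8 FPKM after siKDM5C. The 14 cytosolic genes summed to 1316 to 1381, 1384 to 1421 and 1561 to 1601 FPKM in the same order. A sum can follow few genes. After siSIRT6 the mean of CALR rose from 195.8 to 257.6 FPKM and that of HSPA8 from 205.8 to 279.9 FPKM. The class medians of the difference of log2(FPKM + 1) were then -0.04 (ER) and 0.05 (cytosolic).

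**Figure D1:**
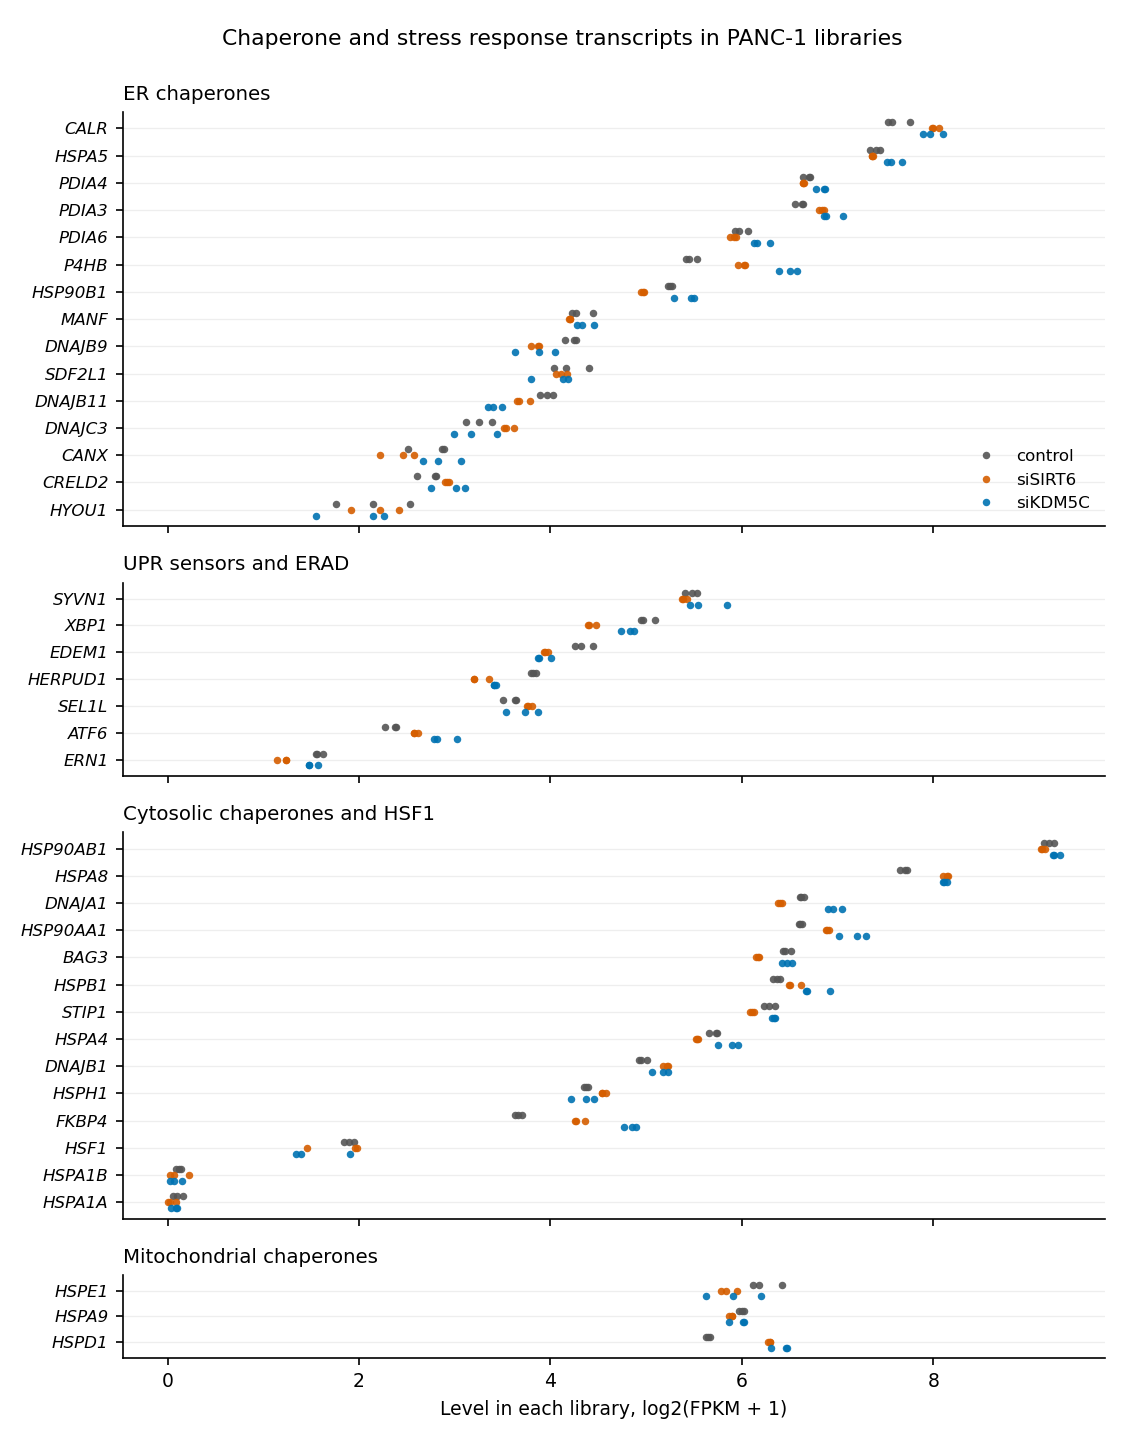
Levels of all 39 members in each of the 9 libraries, on a log2(FPKM + 1) axis, in 4 panels by compartment and role, with 1 point per library coloured by group. HSP90AB1 lies at the top of the range, HSPA1A and HSPA1B lie near 0 in every library.

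Tests used differences of log2(FPKM + 1), with limma's moderated test fitted across 16135 genes and Benjamini-Hochberg adjusted p-values over all of them, two-sided, with a threshold of 0.05. Of the 39 members 37 were tested, and HSPA1A and HSPA1B lay below the minimum of 1 FPKM in 3 libraries. After siSIRT6, 10 of 37 rose, 12 fell and 15 did not pass, with a median difference of -0.07. Over all genes 50.8% passed the test, 23.9% higher and 26.9% lower, with a median of -0.05, so the members' share lay near this background. After siKDM5C, 15 rose (40.5%), 5 fell (13.5%) and 17 did not pass, with a median difference of 0.12. Over all genes 51.5% passed, 25.6% higher and 25.9% lower, with a median of -0.02. The members' share called in either direction again lay near this background, while their split by direction did not. The counts in each direction also depend on the scaling. With TPM, 14 members rose and 5 fell after siSIRT6 and 21 rose and 3 fell after siKDM5C, while over the same 16135 genes the calls went from 3861 higher and 4333 lower to 4929 and 2872 after siSIRT6 and from 4134 and 4174 to 5267 and 2639 after siKDM5C. TPM is the FPKM of a library scaled to the same fixed total in every library, and it moved the median of these 16135 genes by 0.11 in either comparison. With TPM the members' median was 0.05 after siSIRT6 and 0.25 after siKDM5C, beside 0.06 and 0.10 over these genes. The minimum of 1 was applied on the TPM scale, so the TPM fit tested and adjusted over 19169 genes, with 5286 higher and 3181 lower after siSIRT6 and 5738 and 2914 after siKDM5C, and the part of the larger gene set in the members' calls was not tested. The 3 libraries of the knockdown lay all above or all below control in 28 of the 37 after siSIRT6 and in 21 after siKDM5C, beside 65.5% and 55.7% of all genes. Both comparisons share the 3 control libraries, and their values are therefore given side by side. With both read together, 9 members were higher after either siRNA, 5 were lower after either, 2 passed in opposite directions, 10 passed after 1 siRNA and 11 after neither. Over all genes 30.9% passed in the same direction in both comparisons and 2.92% in opposite directions.

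**Figure D2:**
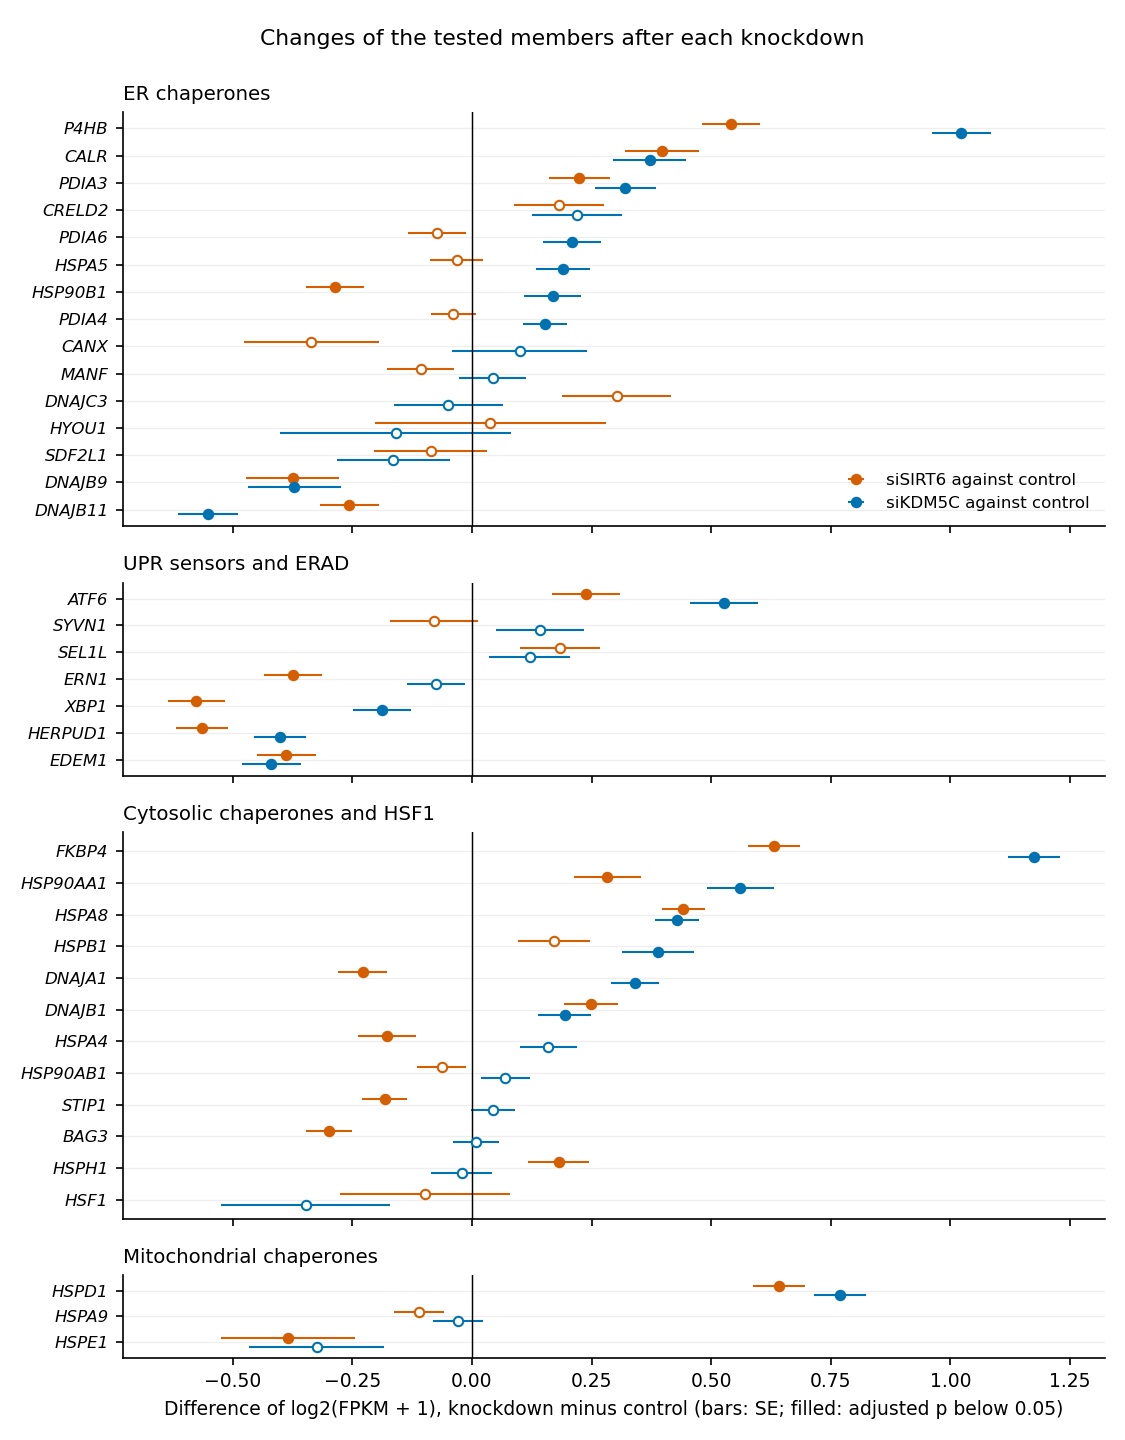
Differences of log2(FPKM + 1) between each knockdown and control for the 37 tested members, with bars for the standard error, filled points for an adjusted p below 0.05 and a vertical line at 0. FKBP4 and P4HB lie farthest to the right after siKDM5C at 1.18 and 1.02, and XBP1 and HERPUD1 lie farthest to the left after siSIRT6 at -0.58 and -0.56.

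Among the 15 ER chaperones and folding enzymes, 3 rose, 3 fell and 9 did not pass after siSIRT6, and 7 rose, 2 fell and 6 did not pass after siKDM5C. The disulfide isomerase P4HB and the lectin CALR rose after both siRNAs, and the DnaJ co-chaperones DNAJB9 and DNAJB11 fell after both. The median difference of the class was -0.04 after siSIRT6, which became 0.09 with TPM, and 0.15 after siKDM5C, which became 0.28. Over all 16135 genes the medians were -0.05 and -0.02, and 0.06 and 0.10 with TPM. The class had 40% called after siSIRT6 and 60% after siKDM5C, beside the 50.8% and 51.5% of all genes. In bulk RNA a change in the number of cells in some state and a change in the RNA per cell cannot be told apart, and this applies to every comparison here.

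P4HB (chr17:81843159-81860694, minus strand, GENCODE 29 on GRCh38), a disulfide isomerase that is also a subunit of prolyl 4-hydroxylase, was at 42.5, 41.6 and 45.3 FPKM in control. It was at 63.95, 61.3 and 64.4 FPKM after siSIRT6, and at 89.5, 82.5 and 94.2 FPKM after siKDM5C. The 3 groups did not overlap, with control lowest and siKDM5C highest. The difference from control was 0.54 after siSIRT6 (SE 0.06, adjusted p = 0.000152, limma) and 1.02 after siKDM5C (SE 0.06, adjusted p = 4.76e-06). The mean after siKDM5C was 205.7% of the control mean. An antisense gene of unnamed function, ENSG00000262831, lies across the last part of P4HB. It was at 306 ± 43.0, 433 ± 18.7 and 623 ± 72.2 FPKM in control, siSIRT6 and siKDM5C, with differences of 0.51 and 1.03 that both passed. Whether counting used the strand is not stated in the labels, so reads of the pair cannot be told apart.

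CALR, which binds calcium and monoglucosylated glycoproteins, was at 189, 184 and 214.5 FPKM in control, 254, 252 and 266 FPKM after siSIRT6, and 274, 237 and 249 FPKM after siKDM5C. Every knockdown library was above every control library, and the knockdown groups overlapped. The differences were 0.40 (adjusted p = 0.00271, limma) and 0.37 (adjusted p = 0.00379). The antisense gene ENSG00000267458 lies within the last part of CALR. It was at 204.6 ± 7.445, 301.4 ± 22.58 and 232.7 ± 4.429 FPKM in control, siSIRT6 and siKDM5C. Its differences of 0.5542 and 0.185 both passed, and reads of the pair cannot be told apart. PDIA3, the isomerase that works with CALR and CANX, rose by 0.22 after siSIRT6 and by 0.32 after siKDM5C. The membrane lectin CANX did not pass after either siRNA, with 5.79 ± 0.928 FPKM in control, 4.37 ± 0.654 FPKM after siSIRT6 and 6.28 ± 1.04 FPKM after siKDM5C. CALR and CANX each held an ERSE in the windows shown above.

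HSPA5, the main ER chaperone and the regulator that holds the sensors inactive, was at 168, 160 and 173 FPKM in control, 163, 164 and 163 FPKM after siSIRT6, and 203, 188 and 182 FPKM after siKDM5C. The siSIRT6 libraries lay within the control range and the siKDM5C libraries above it. Its difference was -0.03 after siSIRT6 (adjusted p = 0.659, limma) and 0.19 after siKDM5C (adjusted p = 0.0198). HSP90B1, the ER HSP90 known as GRP94, moved in opposite directions, at 37.1, 36.4 and 37.5 FPKM in control, 30.2, 30.5 and 29.8 FPKM after siSIRT6, and 43.2, 44.1 and 38.1 FPKM after siKDM5C. It fell by 0.29 after siSIRT6 (SE 0.06, adjusted p = 0.00411) and rose by 0.17 after siKDM5C (SE 0.06, adjusted p = 0.042). PDIA4 and PDIA6, further disulfide isomerases, rose by 0.15 and 0.21 after siKDM5C, and their differences after siSIRT6 were -0.04 and -0.07. UQCC6, which overlaps HSP90B1 on the other strand, was at 25.0 ± 0.777, 20.7 ± 0.830 and 27.1 ± 3.42 FPKM in control, siSIRT6 and siKDM5C.

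DNAJB11, a co-chaperone of HSPA5 in the ER lumen, was at 13.8, 14.6 and 15.3 FPKM in control, 12.8, 11.8 and 11.6 FPKM after siSIRT6, and 10.2, 9.52 and 9.14 FPKM after siKDM5C. The 3 groups did not overlap and stood in the reverse order of P4HB. It fell by 0.26 after siSIRT6 (adjusted p = 0.00868, limma) and by 0.55 after siKDM5C (adjusted p = 0.000143). A gene on the same strand that overlaps it, ENSG00000283149, was at 141 ± 2.89, 119 ± 7.28 and 93.9 ± 6.18 FPKM in the same groups and passed lower in both comparisons, and how the reads were divided between them was not tested. DNAJB9, the co-chaperone known to repress IRE1, went from 17.7 ± 0.836 FPKM in control to 13.4 ± 0.424 FPKM after siSIRT6 and 13.5 ± 2.10 FPKM after siKDM5C, a fall of 0.37 in either case. DNAJC3, an inhibitor of PERK, was at 8.56 ± 0.895, 10.8 ± 0.485 and 8.29 ± 1.48 FPKM and did not pass. SDF2L1, HYOU1, MANF and CRELD2, all known targets of the unfolded protein response, passed in neither comparison, and their differences ran from -0.16 (SDF2L1 and HYOU1) to 0.22 (CRELD2).

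Several of these calls depended on the scaling or on single libraries. With TPM scaling the falls of HSP90B1 (adjusted p = 0.0527, limma), DNAJB9 (0.078) and DNAJB11 (0.0891) after siSIRT6 no longer passed, nor did that of DNAJB9 after siKDM5C (0.0842), while CRELD2 passed higher after both siRNAs (0.0343 and 0.019), DNAJC3 after siSIRT6 (0.0249) and MANF after siKDM5C (0.0494). The same scaling raised PDIA3 after siSIRT6 to 0.35, and HSPA5, HSP90B1, PDIA4 and PDIA6 after siKDM5C to 0.32, 0.30, 0.28 and 0.34. A fit of only the 2 groups compared ended the rises of HSPA5 (0.0724), PDIA4 (0.0904) and PDIA6 (0.0616) after siKDM5C. The rise of HSP90B1 after siKDM5C was lost in 12 of 16 alternatives, among them no filter (0.0589), median-of-ratios scaling (0.056), the replicate block (0.055) and only the 2 groups (0.109). It passed without siKDM5C replicate 3, and its adjusted p lay between 0.066 and 0.115 without any other single library. The rise of PDIA3 after siSIRT6 was lost without control replicate 3 (0.0526), siSIRT6 replicate 2 (0.0597) or siSIRT6 replicate 3 (0.0511). After siKDM5C, HSPA5 and PDIA6 were lost without control replicate 1 (0.0524 and 0.0614), control replicate 2 (0.0774 and 0.0747) or siKDM5C replicate 1 (0.0554 and 0.0573), and PDIA4 without control replicate 2 (0.0533) or 3 (0.0683). CANX passed lower after siSIRT6 without control replicate 2 (0.0307). CRELD2 passed higher without siKDM5C replicate 2 in both comparisons (0.0445 and 0.00747), with only the 2 groups after siSIRT6 (0.0483) and with the replicate block after siKDM5C (0.0361). DNAJC3 passed higher after siSIRT6 without control replicate 1 (0.0445), siKDM5C replicate 2 (0.016) or siKDM5C replicate 3 (0.0277). It also did so with a minimum of 5 FPKM (0.0467), median-of-ratios scaling (0.0353) and only the 2 groups (0.0149).

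**Figure D3:**
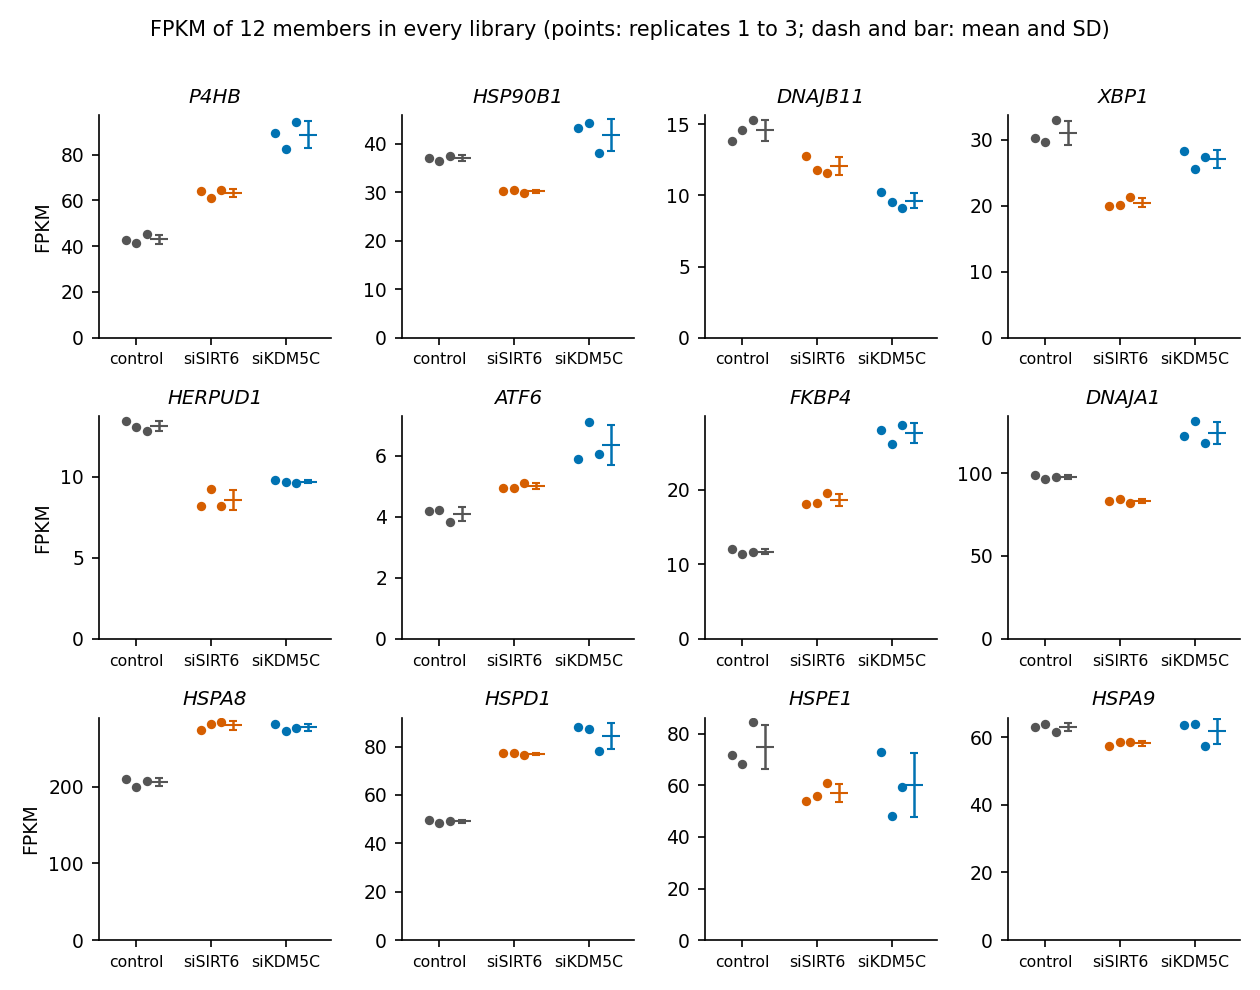
FPKM of 12 members in every library, with 1 point per replicate and the mean and SD of each group beside them, on axes that start at 0. P4HB, FKBP4 and HSPD1 rise from control to both knockdowns, DNAJB11 and HERPUD1 fall, and HSP90B1 and DNAJA1 lie below control after siSIRT6 and above it after siKDM5C.

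Among the 7 genes of the unfolded protein response and ER-associated degradation, 1 rose, 4 fell and 2 did not pass after siSIRT6, and 1 rose, 3 fell and 3 did not pass after siKDM5C. The class median was -0.37 after siSIRT6 (-0.28 with TPM scaling) and -0.07 after siKDM5C (0.0145 with TPM scaling). The shares called were 71.4% and 57.1% of these 7 genes, beside 50.8% and 51.5% of all genes. HERPUD1, XBP1 and EDEM1 fell after both siRNAs, ERN1 fell after siSIRT6, and ATF6 was the member that rose.

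XBP1, whose spliced form is the transcription factor of the IRE1 branch, was at 30.3, 29.7 and 33.05 FPKM in control, 20.0, 20.1 and 21.3 FPKM after siSIRT6, and 28.3, 25.6 and 27.4 FPKM after siKDM5C. The groups did not overlap, and siSIRT6 was the lowest. The fall was 0.58 after siSIRT6 (SE 0.06, adjusted p = 9.34e-05, limma) and 0.19 after siKDM5C (adjusted p = 0.0282). A gene-level value does not separate spliced from unspliced XBP1. ERN1, the sensor and splicing nuclease of the same branch, was at 2.07, 1.94 and 1.96 FPKM in control, 1.35, 1.35 and 1.22 FPKM after siSIRT6, and 1.78, 1.96 and 1.77 FPKM after siKDM5C. All siSIRT6 libraries were below the others, and the siKDM5C libraries reached into the control range. ERN1 fell by 0.37 after siSIRT6 (adjusted p = 0.00112), and its difference after siKDM5C was -0.07 (adjusted p = 0.338). At this low level the added 1 FPKM shrinks the difference, which was -0.57 after siSIRT6 with 0.1 FPKM added instead.

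ATF6, the sensor that is cut in the Golgi to free a transcription factor, was at 4.21, 4.235 and 3.835 FPKM in control, 4.95, 4.95 and 5.11 FPKM after siSIRT6, and 5.89, 7.12 and 6.05 FPKM after siKDM5C. The groups did not overlap and rose in that order. The differences were 0.24 (adjusted p = 0.0208, limma) and 0.53 (adjusted p = 0.000378).

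HERPUD1, an ER membrane protein that takes part in degradation, was at 13.5, 13.1 and 12.8 FPKM in control, 8.21, 9.29 and 8.22 FPKM after siSIRT6, and 9.82, 9.66 and 9.64 FPKM after siKDM5C. Every knockdown library was below every control library. The fall was 0.56 after siSIRT6 (adjusted p = 6.52e-05, limma) and 0.40 after siKDM5C (adjusted p = 0.00043). EDEM1, which hands misfolded glycoproteins to degradation, fell by 0.39 and 0.42, from 19.3 ± 1.32 FPKM to 14.5 ± 0.202 and 14.2 ± 0.787 FPKM. The ubiquitin ligase SYVN1 and its partner SEL1L, the core of the retrotranslocation complex, did not pass after either siRNA. SYVN1 was at 43.4 ± 1.81, 41.0 ± 0.874 and 48.3 ± 7.05 FPKM, and SEL1L at 11.1 ± 0.611, 12.7 ± 0.255 and 12.2 ± 1.54 FPKM.

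The falls of HERPUD1 and EDEM1 after both siRNAs and of XBP1 and ERN1 after siSIRT6 passed under every alternative that could test them. The fall of XBP1 after siKDM5C was lost in 6 of 16 alternatives, which were TPM scaling (adjusted p = 0.394, limma), median-of-ratios scaling (0.0519), a fit of only the 2 groups compared (0.0737), and the fits without control replicate 1 (0.0532), control replicate 3 (0.0867) and siKDM5C replicate 2 (0.068). The rise of ATF6 after siSIRT6 was lost without control replicate 3 (0.0669) or siSIRT6 replicate 1 (0.0509), 2 (0.0523) or 3 (0.067), and it was 0.38 with TPM scaling. SEL1L passed higher after siSIRT6 with TPM scaling (0.0266), with only the 2 groups fitted (0.0179) and without siKDM5C replicate 2 (0.0452) or 3 (0.0258). After siKDM5C it did so without siKDM5C replicate 3 (0.026).

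Among the 14 cytosolic members 12 were tested. After siSIRT6, 5 rose, 4 fell and 3 did not pass, and after siKDM5C 6 rose, none fell and 6 did not pass (limma, with 0 lower at an unadjusted p under 0.05 as well). The shares called were 75% and 50% of the 12, beside 50.8% and 51.5% of all genes. The median difference was 0.05 after siSIRT6 and 0.18 after siKDM5C, and 0.18 and 0.31 with TPM scaling. FKBP4, HSP90AA1, HSPA8 and DNAJB1 rose after both siRNAs, and DNAJA1 passed in opposite directions.

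FKBP4 (chr12:2794953-2805423, plus strand), the immunophilin FKBP52 that serves HSP90 in steroid receptor folding, had the highest difference of all members after siKDM5C. It was at 12.01, 11.35 and 11.6 FPKM in control, 18.1, 18.2 and 19.6 FPKM after siSIRT6, and 28.0, 26.2 and 28.7 FPKM after siKDM5C. The 3 groups did not overlap, and the mean after siKDM5C was 236.7% of the control mean. The rise was 0.63 after siSIRT6 (SE 0.05, adjusted p = 3.3e-05, limma) and 1.18 after siKDM5C (SE 0.05, adjusted p = 1.2e-06). The antisense gene ENSG00000258092, which lies within FKBP4, was at 59.1 ± 7.09, 102 ± 6.01 and 149 ± 25.6 FPKM in control, siSIRT6 and siKDM5C and rose by 0.79 and 1.31, and reads of the pair cannot be told apart.

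HSPA8, which handles folding and clathrin uncoating in unstressed cells, was at 210, 200 and 208 FPKM in control, 274, 281 and 285 FPKM after siSIRT6, and 282, 273 and 276 FPKM after siKDM5C. All knockdown libraries were above all control libraries, and the knockdown groups overlapped. The rises were 0.44 (adjusted p = 9.13e-05, limma) and 0.43 (adjusted p = 0.000105). HSP90AA1, the inducible cytosolic HSP90, was at 97.9, 96.3 and 95.7 FPKM in control, 118, 119 and 117 FPKM after siSIRT6, and 146, 156 and 128 FPKM after siKDM5C. The groups did not overlap, and the rises were 0.28 (adjusted p = 0.00928) and 0.56 (adjusted p = 0.000254). Its constitutive partner HSP90AB1 did not pass, at 591, 570 and 611 FPKM in control, 558, 562 and 574 FPKM after siSIRT6, and 640, 608 and 611 FPKM after siKDM5C.

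DNAJA1, a DnaJ co-chaperone of HSPA8, was at 99.1, 96.4 and 97.4 FPKM in control, 83.4, 84.3 and 82.0 FPKM after siSIRT6, and 122, 132 and 118 FPKM after siKDM5C. Control lay between the knockdown groups with no overlap. It fell by 0.23 after siSIRT6 (SE 0.05, adjusted p = 0.00579, limma) and rose by 0.34 after siKDM5C (SE 0.05, adjusted p = 0.000701). DNAJB1, the DnaJ protein most associated with heat shock, rose by 0.25 and 0.19, from 30.2 ± 0.937 FPKM to 36.0 ± 0.756 and 34.7 ± 2.15 FPKM. The small heat shock protein HSPB1 rose by 0.39 after siKDM5C, from 81.5 ± 2.19 to 107.4 ± 11.0 FPKM, and was at 92.0 ± 4.52 FPKM after siSIRT6 without passing.

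BAG3, a nucleotide exchange factor that links HSP70 to autophagy, fell by 0.30 after siSIRT6, from 87.4 ± 2.85 to 70.8 ± 0.714 FPKM (adjusted p = 0.00106, limma), and was at 87.9 ± 3.35 FPKM after siKDM5C. STIP1, the adaptor that joins HSP70 to HSP90, fell by 0.18 after siSIRT6, and its difference after siKDM5C was 0.04. The HSP110 proteins, exchange factors of HSP70, differed from each other after siSIRT6, since HSPA4 fell by 0.18 and HSPH1 rose by 0.18. After siKDM5C their differences were 0.16 and -0.02, and neither passed.

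HSF1, the transcription factor of the heat shock response, was at 2.85, 2.73 and 2.585 FPKM in control, 1.74, 2.90 and 2.93 FPKM after siSIRT6, and 1.53, 2.74 and 1.64 FPKM after siKDM5C. Of the knockdown libraries, 1 of siSIRT6 and 2 of siKDM5C lay below every control library, and the groups overlapped. Neither difference passed (adjusted p = 0.674 and 0.134, limma). Without siKDM5C replicate 2 the difference after siKDM5C was -0.53 and passed (0.0221). The heat-inducible HSP70 genes HSPA1A and HSPA1B were at most at 0.114 and 0.165 FPKM in any library, on 0 to 5 and 1 to 8 reads. They share 72.6% and 73.5% of their 50-base stretches with other annotated genes, mostly with each other, so their reads may be divided or lost. No difference could be read at these counts, and no fold is given.

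In the cytosolic class the rises of FKBP4, HSPA8 and HSP90AA1 after both siRNAs, of DNAJB1 and the fall of BAG3 after siSIRT6, and the rises of DNAJA1 and HSPB1 after siKDM5C passed under every alternative. HSP90AB1, HSP90AA1, HSPA8 and HSPB1 share 18.8%, 17.5%, 15.4% and 11.4% of their 50-base stretches with other annotated genes. In the ER class PDIA3 and DNAJB11 share 18.4% and 17.2%. How reads of these 50-base stretches were divided was not tested. With TPM scaling the falls of DNAJA1 (adjusted p = 0.159, limma), STIP1 (0.295) and HSPA4 (0.546) after siSIRT6 were lost and HSPB1 passed higher (0.0144), while HSPA4 (0.00778), HSP90AB1 (0.00903), BAG3 (0.043) and STIP1 (0.00984) passed higher after siKDM5C. It moved DNAJB1 to 0.38 and 0.33, HSPH1 after siSIRT6 to 0.31 and BAG3 after siSIRT6 to -0.18. Median-of-ratios scaling ended the calls of STIP1 (0.0597) and HSPA4 (0.102) after siSIRT6, no filter those of HSPA4 (0.0544) and HSPH1 (0.0646), the replicate block that of HSPH1 (0.0507), and a fit of only the 2 groups that of DNAJB1 after siKDM5C (0.0606). HSPA4 after siSIRT6 was also lost without control replicate 1 (0.0998) or 2 (0.11) or siSIRT6 replicate 1 (0.0975), 2 (0.0842) or 3 (0.0943). HSPH1 after siSIRT6 kept its call without siKDM5C replicate 2 or 3 alone, and its adjusted p was 0.0538 to 0.12 without any other library. DNAJB1 after siKDM5C was lost without control replicate 1 (0.058), control replicate 2 (0.0658) or siKDM5C replicate 1 (0.0581). HSPB1 passed after siSIRT6 without siKDM5C replicate 3 (0.0175), and so did HSPA4 after siKDM5C (0.00611). With the replicate block HSPB1 passed after siSIRT6 (0.0419) and HSPA4 after siKDM5C (0.0438). HSPB1 also passed after siSIRT6 with median-of-ratios scaling (0.0469) and only the 2 groups (0.0204).

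The mitochondrial class holds 3 members, whose differences ran in different directions (median -0.11 after siSIRT6 and -0.03 after siKDM5C, 0.013 and 0.10 with TPM scaling). HSPD1, the HSP60 subunit of the mitochondrial folding chamber, rose after both siRNAs. HSPE1, the HSP10 lid of that chamber, was lower after siSIRT6 with an adjusted p close to the threshold, and HSPA9, the mitochondrial HSP70 known as mortalin, passed in neither comparison.

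HSPD1 (chr2:197486581-197516737, minus strand) was at 49.8, 48.3 and 49.1 FPKM in control, 77.3, 77.4 and 76.6 FPKM after siSIRT6, and 87.9, 87.1 and 78.2 FPKM after siKDM5C. All knockdown libraries were above all control libraries. The rise was 0.64 after siSIRT6 (SE 0.05, adjusted p = 2.94e-05, limma) and 0.77 after siKDM5C (SE 0.05, adjusted p = 1.15e-05), and both passed under every alternative. HSPE1 (chr2:197499994-197503457, plus strand) was at 71.7, 68.2 and 84.3 FPKM in control, 54.0, 55.9 and 60.7 FPKM after siSIRT6, and 72.7, 48.2 and 59.2 FPKM after siKDM5C. The siSIRT6 libraries were below the control libraries, and the siKDM5C libraries overlapped both groups. The difference was -0.38 after siSIRT6 (SE 0.14, adjusted p = 0.0488) and -0.32 after siKDM5C (SE 0.14, adjusted p = 0.0844). The HSPE1 call after siSIRT6 was lost in 10 of 16 alternatives. Among them were TPM scaling (0.145) and leaving out any of the control or siSIRT6 libraries (0.0554 to 0.145) or siKDM5C replicate 3 (0.0662). After siKDM5C it passed lower without siKDM5C replicate 1 (0.0134). HSPA9 was at 63.1, 64.0 and 61.55 FPKM in control, 57.2, 58.6 and 58.6 FPKM after siSIRT6, and 63.6, 63.9 and 57.5 FPKM after siKDM5C. The siSIRT6 libraries of HSPA9 were all below control, with a difference of -0.11 (adjusted p = 0.111). It passed without siKDM5C replicate 3 (0.0312) and with only the 2 groups fitted (0.0286).

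HSPD1 and HSPE1 lie head to head, and in RefSeq the start sites of HSPD1 at 197500274 and of HSPE1 at 197500379 are 105 bases apart, with a second HSPD1 start site at 197499840. The HSPD1 HSE shown above lies in the window of that second site. In the annotation a long HSPD1 transcript spans HSPE1 on the other strand. HSPE1 also overlaps the readthrough gene HSPE1-MOB4 on the same strand, which was at 187 ± 16.1, 140 ± 6.21 and 136 ± 23.7 FPKM in control, siSIRT6 and siKDM5C and fell by 0.41 and 0.47. MOB4, which overlaps HSPD1 on the other strand, was at 17.0 ± 2.56, 11.1 ± 0.324 and 7.35 ± 1.46 FPKM in the same groups. It fell by 0.57 and 1.11, and both passed. HSPE1 shares 27.2% and HSPD1 24.8% of their 50-base stretches with other annotated genes, mainly with HSPE1-MOB4 and with processed pseudogenes. How reads were divided among them was not tested.

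Grouped by the motifs shown above, the 7 members with an ERSE had 1 higher, 2 lower and 4 not passing after siSIRT6, and 4 higher, 1 lower and 2 not passing after siKDM5C. The 4 that were higher after siKDM5C were HSPA5, HSP90B1, CALR and PDIA6, and the lower one was XBP1. Of the 3 with an ERSE-II, HERPUD1 was lower after both siRNAs and HYOU1 and SDF2L1 passed in neither. The 5 with an HSE had 3 higher (HSPA8, HSP90AA1 and HSPD1), 1 lower (DNAJA1) and 1 not passing after siSIRT6. After siKDM5C 4 of the 5 were higher and HSP90AB1 did not pass. Over all genes 50.8% passed after siSIRT6 (23.9% higher and 26.9% lower) and 51.5% after siKDM5C (25.6% and 25.9%). The counts describe letters in the promoter windows, not binding.

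The direct comparison of siSIRT6 with siKDM5C does not use the control libraries for its difference. Of the 37 tested members 17 were lower after siSIRT6 than after siKDM5C, 3 were higher and 17 did not pass, with a median of -0.15. Over all genes 21.3% were lower and 18.6% higher, with a median of -0.02 and 39.9% called in either direction. The lower ones were 6 of 15 ER chaperones, 4 of 7 unfolded protein response genes and 7 of 12 tested cytosolic genes, and no mitochondrial member passed (limma, with 1 lower, HSPD1, at an unadjusted p under 0.05). In 21 of the 37 every siSIRT6 library lay below every siKDM5C library and in 3 above, and over all genes the libraries lay apart in 51.7%.

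The largest difference belonged to DNAJA1, which was 0.57 lower after siSIRT6 than after siKDM5C (difference -0.57, SE 0.05, adjusted p = 7.2e-05, limma). FKBP4 followed at -0.54 (adjusted p = 0.000126), P4HB at -0.48 (adjusted p = 0.00047) and HSP90B1 at -0.46 (adjusted p = 0.000547). XBP1 differed by -0.39 (adjusted p = 0.00129), HSPA4 by -0.34, BAG3 by -0.31 and ERN1 by -0.30. The ER chaperones HSPA5, PDIA4 and PDIA6 differed by -0.22, -0.19 and -0.28, ATF6 by -0.29, HSP90AA1 by -0.28 and STIP1 by -0.23. The higher members were DNAJB11 at 0.30 (adjusted p = 0.00594), DNAJC3 at 0.35 (adjusted p = 0.0378) and HSPH1 at 0.20 (adjusted p = 0.0335). For CALR the difference was 0.03 (SE 0.08), for HSPA8 0.01 (SE 0.05), for EDEM1 0.03 (SE 0.06) and for DNAJB9 -0.0028 (SE 0.10), and none of these passed.

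Of these calls those of CANX (-0.43), DNAJC3, HERPUD1 (-0.16), HSPB1 (-0.22) and HSPH1 were lost without single libraries. CANX was lost without siSIRT6 replicate 1 or 3 or siKDM5C replicate 1 or 2 (adjusted p from 0.0744 to 0.126, limma). DNAJC3 was lost without control replicate 2, any siSIRT6 replicate, or siKDM5C replicate 1 or 3 (0.0556 to 0.112). HERPUD1 kept its call without siSIRT6 replicate 2 alone, and its adjusted p was 0.0543 to 0.148 without any other library. HSPB1 kept its call without siKDM5C replicate 1 or 2 alone (0.0571 to 0.142 without any other), and HSPH1 without control replicate 3 or siKDM5C replicate 2 or 3 (0.052 to 0.104 without any other). TPM scaling also ended the calls of DNAJC3 (0.0594), HERPUD1 (0.0548), HSPH1 (0.0512) and HSPB1 (0.0554), and median-of-ratios scaling those of CANX (0.0538), HERPUD1 (0.0991), HSPB1 (0.0996) and HSPA5 (0.0529). SYVN1 passed lower without siKDM5C replicate 2 (0.026), and HSPA9 (0.0345) and HSPD1 (0.00845) did so without siKDM5C replicate 3.

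Beyond the 39 members, 10 lists of 157 genes from the same pathways were examined, of which 147 genes were tested. After siSIRT6, 32 of 147 rose and 34 fell, with a median of -0.0037, and after siKDM5C 48 rose and 29 fell, with a median of 0.04. The shares called, 44.9% and 52.4%, lay below and near the 50.8% and 51.5% of all genes, and the counts of each list below are to be read beside 23.9% higher and 26.9% lower over all genes after siSIRT6 and 25.6% and 25.9% after siKDM5C. The longest list, other ER folding enzymes, had 12 of 32 higher and 2 lower after siSIRT6 (median 0.18) and 18 higher and 2 lower after siKDM5C (median 0.24). GANAB, the catalytic subunit of glucosidase II, which trims glycans for the CALR and CANX cycle, was at 28.8, 28.4 and 30.1 FPKM in control, 86.6, 86.1 and 89.7 FPKM after siSIRT6, and 106, 94.5 and 108 FPKM after siKDM5C. GANAB rose by 1.56 (adjusted p = 5.52e-07, limma) and 1.78 (adjusted p = 3.06e-07), more than any of the 39 members. PRDX4, an ER peroxiredoxin, rose by 1.19 and 1.52, from 7.11 ± 0.455 FPKM to 17.6 ± 1.33 and 22.4 ± 2.598 FPKM. The ER prolyl isomerase FKBP9 rose by 0.86 and 0.62, and the ER membrane DnaJ protein DNAJC1 by 0.59 and 0.85.

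In the PERK branch 1 of 7 genes rose and 5 fell after siSIRT6, and 3 rose and 2 fell after siKDM5C. EIF2AK3, which encodes PERK, fell by 0.32 and 0.31, and CHAC1, a glutathione-degrading enzyme induced through ATF4, fell by 0.68 and 0.36. TRIB3, a pseudokinase that is also a target of the branch, rose by 0.58 and 0.68. PPP1R15A, the phosphatase subunit that ends the translation block, fell by 0.24 after siSIRT6 and rose by 0.43 after siKDM5C, and the former was lost with TPM scaling (adjusted p = 0.176, limma) and without control replicate 3 (0.0736) or siSIRT6 replicate 1 (0.0722) or 2 (0.0799). Among relatives and proteases of ATF6, 3 of 5 tested genes rose after siSIRT6 and 3 rose and 1 fell after siKDM5C. MBTPS1, the protease that makes the first cut in ATF6, rose by 0.23 and 0.48, and the membrane-bound transcription factors CREB3 and CREB3L2 rose by 0.54 each after siSIRT6 and by 0.29 and 0.61 after siKDM5C. MBTPS2, the other protease of the list, did not pass after siSIRT6 (0.05) and fell by 0.27 after siKDM5C. With TPM scaling MBTPS1 was at 0.36 after siSIRT6 and CHAC1 at -0.23 after siKDM5C.

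Other degradation factors had 2 of 19 tested genes higher and 6 lower after siSIRT6, and 5 higher and 4 lower after siKDM5C. UBE2J1 and UBE2J2, the ubiquitin conjugating enzymes of the ER membrane, fell by 0.54 and 0.56 after siSIRT6. After siKDM5C UBE2J2 fell by 0.30, which was lost with TPM scaling (adjusted p = 0.061, limma), and UBE2J1 did not pass (-0.03). FAF2, which recruits the VCP segregase, fell by 0.39 after siSIRT6 and by 0.44 after siKDM5C. After siKDM5C the VCP adaptor UFD1 rose by 0.85 and DERL2, a derlin of the retrotranslocation complex, fell by 0.52. DERL2 also fell after siSIRT6, by 0.33. UFD1 also passed higher after siSIRT6 with TPM scaling (adjusted p = 0.00757, limma) and without control replicate 3 (0.0263). The translocon and glycosylation list had 3 of 21 higher and 4 lower after siSIRT6 and 5 higher and 4 lower after siKDM5C. SSR2, a subunit of the translocon-associated complex, fell by 0.31 after siSIRT6 and rose by 0.21 after siKDM5C (-0.19 and 0.35 with TPM scaling). The oligosaccharyltransferase subunits RPN2 and STT3A moved apart after siKDM5C, by 0.47 and -0.52.

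Among HSP90 co-chaperones 5 of 11 rose and 1 fell after siSIRT6, and 5 rose and 3 fell after siKDM5C. UNC45A, a myosin-directed co-chaperone, rose by 1.18 and 0.94, and AHSA1, which activates the HSP90 ATPase, rose by 0.72 in either case, from 18.0 ± 0.582 FPKM to 30.3 ± 0.915 and 30.2 ± 1.13 FPKM. Other cytosolic HSP70 and DnaJ genes had 3 of 16 higher and 5 lower after siSIRT6 and 3 higher and 7 lower after siKDM5C. ST13, the HSP70 interacting protein Hip, rose by 0.73 and 0.44, DNAJB6, a DnaJ protein that holds back aggregation, fell by 0.44 and 0.37, and the HSP70 relative HSPA14 fell by 0.47 and 0.54. DNAJA2 rose by 0.56 after siSIRT6, where its relative DNAJA1 fell. Only 4 of the 9 small heat shock protein and HSF genes were tested, and HSBP1, a negative regulator of HSF1, fell by 0.48 after siKDM5C.

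**Figure D4:**
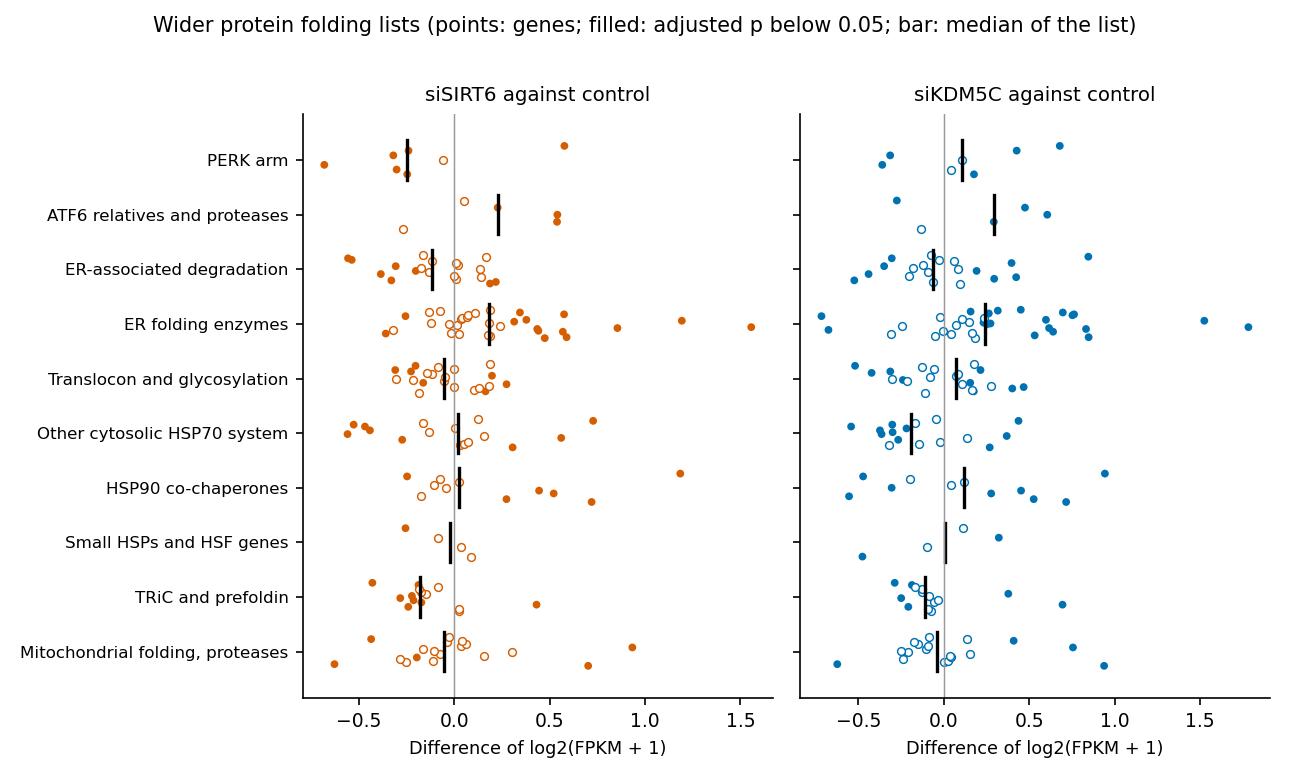
Differences of log2(FPKM + 1) from control for the tested genes of the 10 wider lists, siSIRT6 on the left and siKDM5C on the right, with 1 point per gene, filled points for an adjusted p below 0.05, and a bar at the median of each list. The ER folding enzymes reach the highest values, 1.56 and 1.78 for GANAB, and their medians of 0.18 and 0.24 lie to the right of 0.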

How the data were processed

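RNA was sequenced in 9 libraries of PANC-1 cells, 3 per group. Per the labels' protocols, total RNA was extracted with Trizol and libraries were made with a stranded mRNA kit. Per the submitters' processing notes, Trimmomatic, HISAT2, Cufflinks, HTSeq and the hg38 build were used, and neither their versions nor the annotation and counting strand are stated. The deposited values are FPKM per gene and library made by the authors, a unit read from the values, since low values step in whole reads per gene length (54.2% to 55.7% of values were whole within 0.01 of a read with GENCODE 29 exon lengths).

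Symbols were matched for 36745 of 36753 identifiers. A filter kept 16135 genes that reached 1 FPKM in 3 or more libraries. limma 3.58.1 (R 4.3.3), with a trend, then fitted log2(FPKM + 1) of all libraries at once (6 residual degrees of freedom). The added 1 FPKM shrinks the log2 differences of low genes. The test served 3 comparisons and was also run on simulated data. Read floors cover counting error only. The members, lists and tests were chosen with earlier results of these data known. Per-library values are given for members called against control with a difference of at least 0.5, for mitochondrial members, and for ERN1, ATF6, XBP1 and HSF1. Those of CALR, HSPA5, HSP90B1, HSPA8, HSP90AB1 and DNAJA1 were added after their values were seen. Of the wider lists, up to 3 called genes per list and comparison with the largest differences could be named, and MBTPS2 was added after its values were seen. Alternatives, 17 in all, varied the pseudocount, filter, scaling, replicate block, groups fitted, libraries and the treatment of HSPA1A and HSPA1B.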

Additional observations from a re-analysis of the deposited data

How the results depend on the processing

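No call of a member reversed under the 17 alternatives, and differences that did not pass changed sign in 14, 15 and 10 of 589 values for the siSIRT6, siKDM5C and direct comparisons. With TPM scaling the lower members went from 12 to 5 after siSIRT6 and from 5 to 3 after siKDM5C. The members higher after siSIRT6 than after siKDM5C went from 3 to 1 with no filter, with TPM, and with only the 2 groups compared, and ranged from 1 to 3 with single libraries left out. With TPM the class medians moved to 0.0861 (ER), -0.2785 (unfolded protein response), 0.18 (cytosolic) and 0.013 (mitochondrial) after siSIRT6, and to 0.2846, 0.0145, 0.3094 and 0.1014 after siKDM5C. The unfolded protein response median after siSIRT6 was -0.2333 with a minimum of 5 FPKM, which leaves fewer genes. The cytosolic median after siSIRT6 was -0.0387 with no filter, 0.1719 with a minimum of 5 FPKM, 0.0961 with median-of-ratios scaling, and 0.0283 to 0.12 without single libraries. After siKDM5C it was 0.1148 with no filter, which adds HSPA1A and HSPA1B, and 0.152 to 0.2002 without single libraries. The cause of the other shifts was not tested.

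With the replicate number as a replicate block, 10 members were higher and 12 lower after siSIRT6, 16 higher and 5 lower after siKDM5C, and 3 higher and 15 lower in the direct comparison. The deviations of libraries from their group means had r from -0.229 to 0.252 between libraries with the same number. Between libraries with different numbers r ran from -0.353 to 0.426. Each deviation is from a mean of only 3 libraries, so these values cannot decide whether equal numbers mark paired samples. Median-of-ratios scaling ended 3, 2 and 4 calls of members in the 3 comparisons, no filter 3, 1 and 5, and fitting only the 2 groups 0, 6 and 4. After siSIRT6, median-of-ratios scaling also added 2 calls, DNAJC3 and HSPB1, both higher. Fitting only the 2 groups added 5 there, with DNAJC3, CRELD2, SEL1L and HSPB1 higher and HSPA9 lower. HSPA1A and HSPA1B, on 0 to 5 and 1 to 8 reads over all 9 libraries, lay near the floor of 3 reads. HSPA1A was at 0 FPKM in the deepest library, siSIRT6 replicate 3. Summing HSPA1A and HSPA1B changed no count of calls.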

Other observations

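In the cytosolic chaperonin TRiC and its partner prefoldin, which fold actin and tubulin, 7 of 14 genes fell and 1 rose after siSIRT6 (median -0.18), and 4 fell and 2 rose after siKDM5C (median -0.11, limma, Benjamini-Hochberg adjusted p below 0.05 over all genes). The shares called were 57.1% and 42.9% of the 14, near and below the 50.8% and 51.5% of all genes. The subunit CCT5 was the one that rose after siSIRT6, by 0.43, and it rose by 0.69 after siKDM5C, from 39.6 ± 1.36 FPKM in control (SD, n = 3) to 53.7 ± 0.469 and 64.7 ± 2.12 FPKM. VBP1, a prefoldin subunit, fell by 0.43 and 0.29, and CCT8 fell by 0.28 and 0.25. With TPM scaling the falls of VBP1 (adjusted p = 0.119) and CCT8 (0.0867) after siKDM5C were lost, and the fall of CCT8 after siSIRT6 was 0.16.

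Among 18 other genes of mitochondrial folding and proteolysis, 2 rose and 3 fell after siSIRT6, and 3 rose and 1 fell after siKDM5C, so that 27.8% and 22.2% were called, below the shares of all genes. LONP1, the matrix AAA protease, rose by 0.93 and 0.76, from 11.4 ± 0.391 FPKM to 22.7 ± 0.141 and 20.0 ± 1.45 FPKM. AFG3L2, a subunit of the inner membrane protease, rose by 0.70 and 0.94, from 6.17 ± 0.249 FPKM to 10.7 ± 0.0607 and 12.7 ± 0.486 FPKM. ATF5, a transcription factor known from the mitochondrial unfolded protein response, fell by 0.63 and 0.62, from 25.9 ± 2.09 FPKM to 16.4 ± 0.676 and 16.5 ± 1.67 FPKM. These calls of LONP1, AFG3L2 and ATF5 passed under every alternative run.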
